A study of Mus musculus with 56 samples.

Results

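Opioid receptors are G protein-coupled receptors of neurons. The gene Oprm1 encodes the mu receptor, the main site of morphine action, Oprd1 the delta receptor, Oprk1 the kappa receptor, which binds dynorphins, and Oprl1 the nociceptin receptor, which resembles the others in sequence but does not bind classical opioids. Pnoc encodes prepronociceptin, from which nociceptin, the ligand of the Oprl1 receptor, is cut. All of these receptors couple to inhibitory G proteins, lower adenylyl cyclase activity, open inwardly rectifying potassium channels and close presynaptic calcium channels. In the nucleus accumbens, which forms the ventral striatum, they act on spiny projection neurons and on the terminals that reach them, and kappa receptors on dopamine terminals restrain dopamine release. Such terminals carry receptor protein made elsewhere, so an mRNA level in a region is not a level of receptor there.

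The values reported here are those of every array probe set whose annotation names Oprm1, Oprd1, Oprk1, Oprl1 or Pnoc and no other gene. The rule found 11 probe sets for these 5 genes among 34880 probe sets with a single gene symbol, which stand for 18182 genes. Oprm1 had 4 probe sets, Oprl1 had 3, Oprk1 had 2, and Oprd1 and Pnoc had 1 each. Probe sets 1425432_at and 1451705_a_at of Oprm1 were designed on the same source sequence, as were 1422099_a_at and 1450486_a_at of Oprl1, so these pairs are not independent readings.

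Expression was measured in prefrontal cortex of 29 inbred mouse strains (29 arrays) and in nucleus accumbens of 27 of them (27 arrays). Each of the 56 arrays held RNA pooled from 3 male mice of 1 strain, aged 8 to 10 weeks, and a strain's cortex and accumbens came from adjoining slices of the same brains. The strains with both regions were WSB/EiJ, SWR/J, SM/J, SJL/J, RIIIS/J, PL/J, P/J, NZW/LacJ, NON/LtJ, NOD/LtJ, MA/MyJ, KK/HlJ, I/LnJ, FVB/NJ, DBA/2J, CE/J, CBA/J, C58/J, C57BR/cdJ, C57BL/6J, C3H/HeJ, BUB/BnJ, BTBR T+ tf/J, BALB/cByJ, AKR/J, A/J and 129S1/SvImJ, and NZO/HILtJ and MRL/MpJ had cortex only. With 1 pool for each strain and region there is no replicate within a strain, n counts strains, and differences between strains hold those between pools and dissections as well. Values are log2 intensities, and a level is not compared between probe sets, since each binds with its own strength. A value under log2 5 was taken as dim, and a probe set was tested where 13 or more of the 54 paired arrays exceeded log2 5.

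Some arrays stood apart in the genes that mark the regions, and results that rest on them are given with and without them. The mean of 10 measured spiny neuron markers lay between 9.68 and 10.41 in 23 accumbens arrays but at 6.93 in BALB/cByJ, 8.53 in NON/LtJ, 8.86 in CE/J and 9.28 in WSB/EiJ. The same mean lay between 4.87 and 5.25 in cortex except in the array labelled MA/MyJ, where it was 9.30. Otherwise the markers went with the region labels. All 10 spiny neuron markers were higher in accumbens and 5 of 6 tested cortical excitatory neuron markers were lower there. These counts say little, since 83.3% of all tested probe sets were called between the regions. Drd2, Gpr6, Rgs9, Rarb and Rxrg had cortex means below log2 5, and the lower cortical markers had accumbens means below it. Such genes passed the filter mainly through the other region and had to differ. Drd1, Ppp1r1b, Pde10a, Tac1 and Foxp1 had both means above log2 5 and differed by 1.29 to 4.74. Array medians of intensity, on the linear scale, lay between 9.93 and 10.42 in cortex and between 9.66 and 10.13 in accumbens, and the actin signal at the 3′ end was above that at the 5′ end, with a log2 difference of 1.74 ± 0.27 for cortex arrays and 1.92 ± 0.18 for accumbens arrays (SD, n = 27 each).

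Of the 11 probe sets, 6 lay below log2 5 on every array: all 4 of Oprm1, the 1 of Oprd1, and 1422099_a_at of Oprl1. Pnoc exceeded log2 5 on 2 arrays only. The remaining 4, both of Oprk1 and the other two of Oprl1, passed the filter, so the mu, delta and nociceptin precursor genes were not among the probe sets tested. A dim value on these arrays gives no evidence that the mRNA was absent.

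**Figure D1:**
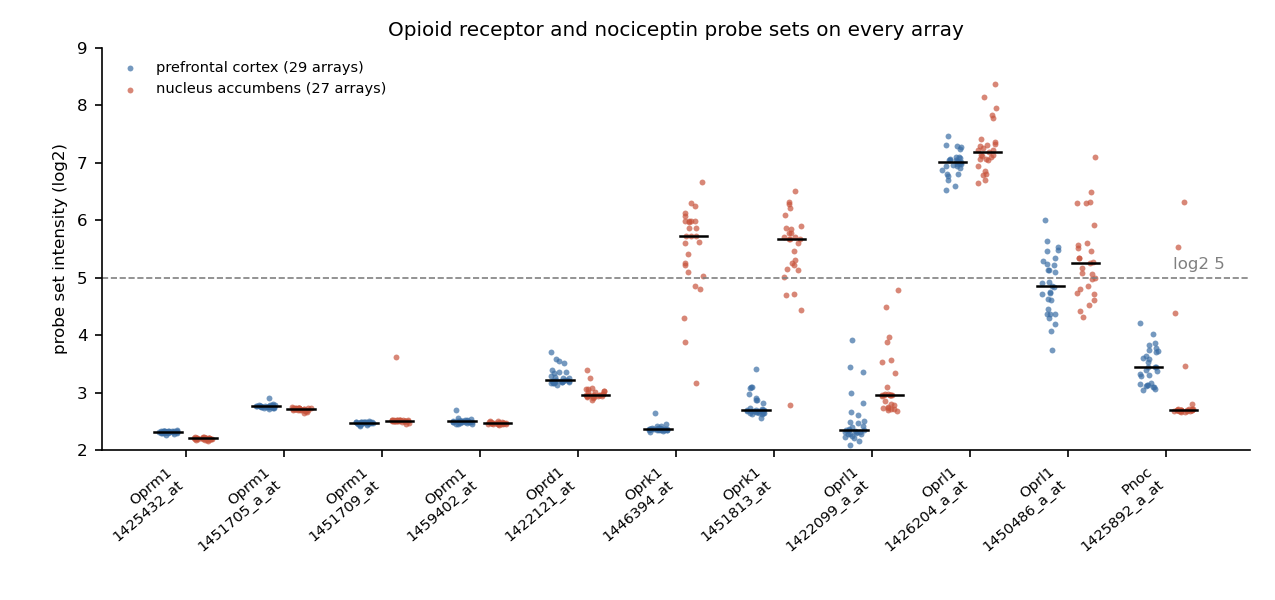
Log2 intensity (vertical axis) of each of the 11 probe sets on 29 cortex arrays (blue) and 27 accumbens arrays (red); each point is 1 array, short black lines are medians and the dashed line is log2 5. Only Oprk1 in accumbens, 1426204_a_at and 1450486_a_at of Oprl1, and Pnoc on 2 accumbens arrays rise above the dashed line.

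Oprm1, the mu receptor gene, gave flat, dim values in both regions. Probe set 1425432_at ranged from 2.27 to 2.35 in cortex (median 2.32) and from 2.16 to 2.23 in accumbens (median 2.20). Probe set 1451705_a_at ranged from 2.72 to 2.90 in cortex and from 2.65 to 2.74 in accumbens, with medians of 2.76 and 2.72. These 2 spread over less than log2 0.2 within a region. Probe set 1459402_at ranged from 2.46 to 2.70 in cortex and from 2.43 to 2.50 in accumbens. Probe set 1451709_at ranged from 2.41 to 2.51 in cortex and from 2.46 to 3.62 in accumbens, where SM/J alone was at 3.62 and the next strain, A/J, at 2.53. The other Oprm1 probe sets did not share this SM/J value, since they did not exceed 2.74 on any accumbens array.

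Oprd1, the delta receptor gene, was dim as well. Its probe set 1422121_at ranged from 3.14 in MRL/MpJ to 3.71 in SWR/J in cortex (median 3.21) and from 2.86 in NZW/LacJ to 3.40 in FVB/NJ in accumbens (median 2.96). The ranges overlapped, and 26 of 27 strains were higher in cortex. Fitted without the filter, the accumbens mean was below the cortex mean by 0.29 (difference -0.29, SE 0.04, limma adjusted p 1.9e-08). This call cannot be read as a difference in Oprd1, because 76.8% of the 26153 probe sets below log2 5 on all 56 arrays were also called between the regions in that fit, and, by the values, the regions were normalized in separate runs.

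Oprk1, the kappa receptor gene, exceeded log2 5 on most accumbens arrays and on no cortex array. On probe set 1446394_at, cortex values ran from 2.31 in A/J through a median of 2.36 to 2.65 in MA/MyJ, and accumbens values from 3.16 in BALB/cByJ through a median of 5.73 to 6.67 in C3H/HeJ. Every accumbens array was above every cortex array, and 22 of 27 accumbens arrays exceeded log2 5. The next to lowest accumbens array was NON/LtJ at 3.88, and the next to highest was BUB/BnJ at 6.31. The paired means were 2.38 ± 0.06 in cortex and 5.50 ± 0.78 in accumbens (SD, n = 27). The difference was 3.12 log2 units (SE 0.14, limma adjusted p 1.8e-18), positive in 27 of 27 strains. No cortex array exceeded log2 5, so this probe set passed the filter through accumbens alone. It had to differ to be tested, and its p-value is not evidence of its own.

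The other Oprk1 probe set, 1451813_at, gave nearly the same picture. Cortex values ran from 2.56 in 129S1/SvImJ through a median of 2.69 to 3.41 in CBA/J, and accumbens values from 2.78 in BALB/cByJ through a median of 5.67 to 6.51 in C3H/HeJ. In accumbens 23 of 27 arrays exceeded log2 5, and the regions overlapped only through BALB/cByJ, whose accumbens value was 0.03 below its cortex value (difference -0.03). The difference of the paired means, 2.78 ± 0.20 in cortex and 5.48 ± 0.74 in accumbens (SD, n = 27), was 2.69 log2 units (SE 0.14, limma adjusted p 1.7e-17), and 26 of 27 strains were higher in accumbens. This probe set too passed the filter through accumbens alone and had to differ, so its p-value is not evidence of its own.

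Because the cortex means lay below log2 5, the fold change is given as a bound against log2 5: Oprk1 was at least 1.41-fold higher in accumbens on 1446394_at and at least 1.39-fold on 1451813_at. Both probe sets passed the filter only through the accumbens arrays, so they had to differ between the regions. In pooled tissue a larger number of expressing cells and more RNA per cell cannot be told apart. Of all 16056 tested probe sets, 83.3% were called between the regions and 51.8% were called higher in accumbens, so being called is common here, and the median difference over all of them was 0.13. Region cannot be told apart from separate normalization runs, which are inferred from the values.

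**Figure D2:**
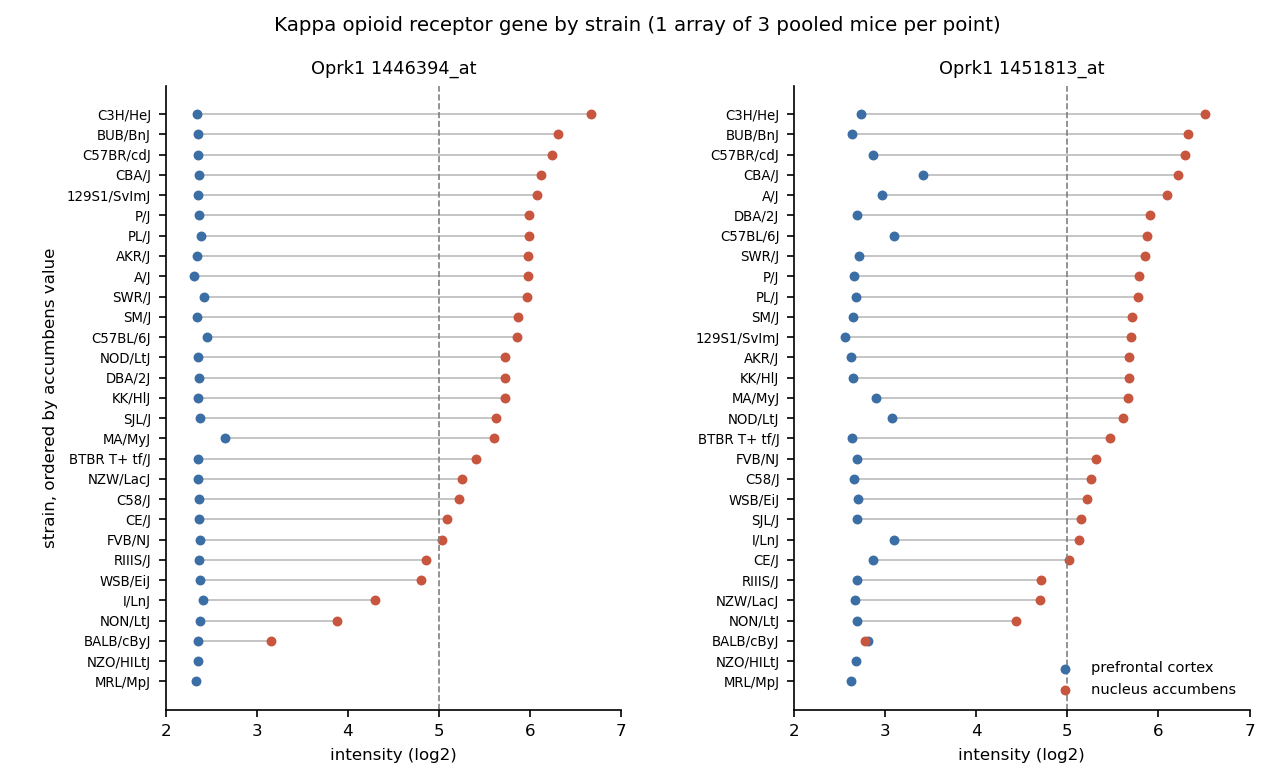
Log2 intensity (horizontal axis) of the 2 Oprk1 probe sets in prefrontal cortex (blue) and nucleus accumbens (red), with strains ordered by the accumbens value; each point is 1 array of pooled RNA and the dashed line is log2 5. Cortex values stay at or below 3.41 in all strains, and accumbens values run from C3H/HeJ at the top to NON/LtJ and BALB/cByJ at the bottom.

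The order of strains for Oprk1 in accumbens was shared by its probe sets. Across 27 accumbens arrays they correlated at Pearson r 0.92 and Spearman rho 0.90 (permutation p 1e-05 each, the smallest that 100000 draws can give, adjusted p 1.5e-05 and 3e-05 over 3 such relations). Without BALB/cByJ and NON/LtJ, the strains farthest from the median, r was 0.85. Both probe sets read the same RNA pools, so this agreement speaks for the reading of a pool and not for a strain's genotype. Neighbours in the order were closer than the residual SD of the fit, 0.56 and 0.53, in 25 of 26 steps on each probe set. The exception on each was the step from BALB/cByJ up to NON/LtJ, 0.72 on 1446394_at and 1.65 on 1451813_at. Steps between 27 ordered values are small in any case, and with cortex flat the residual SD holds the accumbens spread itself, so this describes the order and tests nothing.

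The lowest Oprk1 values in accumbens went with the lowest spiny neuron markers. The BALB/cByJ array, lowest for Oprk1 on both probe sets, was also lowest for the spiny neuron mean, and the NON/LtJ array was next to lowest on all of these measures. CE/J and WSB/EiJ had 5.02 and 5.22 on 1451813_at, against 4.70 to 6.51 in the 23 arrays outside these 4. Within those 23 arrays, which were set apart after seeing the marker values, Oprk1 correlated with the spiny neuron mean at r 0.60 on 1446394_at (permutation p 0.0034, adjusted p 0.021 over 12 relations; rho 0.35, p 0.10) and at r 0.56 on 1451813_at (permutation p 0.0053, adjusted p 0.021; rho 0.47, p 0.026). Without I/LnJ and NZW/LacJ, the arrays farthest from the median of the spiny neuron mean, r fell to 0.28 (permutation p 0.22) and 0.37 (permutation p 0.098), so the relation rests on those arrays. With the mean of the cortical excitatory markers, r was 0.21 and 0.11 (permutation p 0.32 and 0.62). The part of tissue composition in the Oprk1 values was not tested.

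The region difference of Oprk1 was also fitted without the arrays that stood apart. Without MA/MyJ, BALB/cByJ, CE/J, NON/LtJ and WSB/EiJ it was 3.36 on 1446394_at and 2.89 on 1451813_at. These are differences as measured, with cortex dim, and not bounds against log2 5. Both probe sets had passed the filter through accumbens alone, and the filter was not set anew for this fit. The difference therefore had to persist, so this fit cannot show that it is independent of those arrays. The MA/MyJ cortex array, with its spiny neuron mean of 9.30, still had dim Oprk1 values of 2.65 and 2.90.

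Oprl1, the nociceptin receptor gene, was measured in both regions, and its values were a little higher in accumbens. On probe set 1426204_a_at, cortex values ran from 6.53 in CE/J through a median of 7.01 to 7.46 in I/LnJ, and accumbens values from 6.65 in SM/J through a median of 7.20 to 8.38 in BALB/cByJ. All 56 arrays exceeded log2 5, and the regions overlapped over most of their range. The next to lowest arrays were RIIIS/J at 6.59 in cortex and FVB/NJ at 6.71 in accumbens, and the next to highest were AKR/J at 7.31 in cortex and CE/J at 8.14 in accumbens. The paired means were 6.99 ± 0.21 in cortex and 7.26 ± 0.43 in accumbens (SD, n = 27). The difference was 0.27 log2 units, 1.21-fold (SE 0.08, limma adjusted p 0.0036), and 21 of 27 strains were higher in accumbens.

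Probe set 1450486_a_at of Oprl1 lay close to log2 5. Cortex values ran from 3.74 in SWR/J through a median of 4.85 to 6.00 in AKR/J, and 12 of 29 exceeded log2 5. Accumbens values ran from 4.31 in SJL/J through a median of 5.26 to 7.10 in BALB/cByJ, and 18 of 27 exceeded log2 5. The regions overlapped widely. The difference was 0.45 (SE 0.18, limma adjusted p 0.019), from 4.88 ± 0.51 in cortex to 5.34 ± 0.70 in accumbens (SD, n = 27), with 19 of 27 strains higher in accumbens and at least a 1.26-fold difference against log2 5. The dim probe set 1422099_a_at, designed on the same source sequence, ran from 2.09 to 3.91 in cortex and from 2.67 to 4.78 in accumbens, with AKR/J highest in cortex and WSB/EiJ and BALB/cByJ highest in accumbens.

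The Oprl1 region calls depended on scaling and on a few strains. With each array centred on its median, the differences were 0.14 (adjusted p 0.11) and 0.32 (adjusted p 0.087), and with quantile normalization across both regions 0.16 (adjusted p 0.081) and 0.32 (adjusted p 0.092), all by limma. Without the 5 strains named above, 1426204_a_at differed by 0.11 (limma adjusted p 0.048) and 1450486_a_at by 0.16 (limma adjusted p 0.32).

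**Figure D3:**
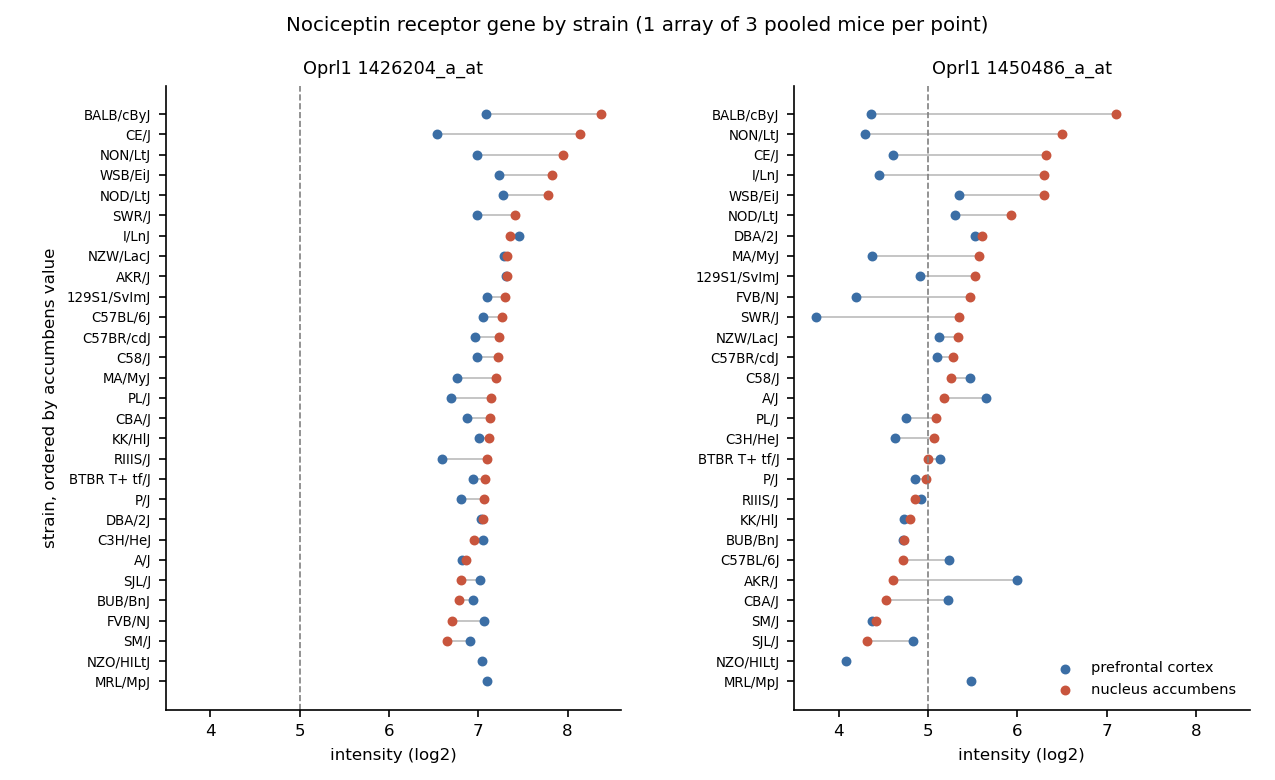
Log2 intensity (horizontal axis) of the 2 tested Oprl1 probe sets in prefrontal cortex (blue) and nucleus accumbens (red), with strains ordered by the accumbens value; each point is 1 array of pooled RNA and the dashed line is log2 5. BALB/cByJ, CE/J, NON/LtJ and WSB/EiJ have the 4 highest accumbens values on 1426204_a_at, and I/LnJ joins them on 1450486_a_at.

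The 4 accumbens arrays with low spiny neuron markers were high in Oprl1. For Oprk1 only BALB/cByJ and NON/LtJ lay below the other 23 arrays, and CE/J and WSB/EiJ lay within their range. On 1426204_a_at, BALB/cByJ, CE/J, NON/LtJ and WSB/EiJ had 8.38, 8.14, 7.95 and 7.83, all above the 6.65 to 7.78 of the other 23 arrays. On 1450486_a_at they had 7.10, 6.33, 6.50 and 6.29, and among the other 23 arrays, which began at 4.31, only I/LnJ at 6.30 reached them. I/LnJ had the lowest spiny neuron mean of those 23, 9.68, and also their lowest Oprk1 value on 1446394_at, 4.30. NOD/LtJ, at the top of the 23 on 1426204_a_at, had the highest cortical excitatory mean of all accumbens arrays, 6.12.

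Markers of septum and basal forebrain, which lie next to the accumbens, were high in the same arrays. This list of 8 genes (Zic1, Zic2, Zic4, Zic5, Trpc4, Lhx8, Gbx1 and Isl1) was chosen after their values had been seen, and 4 of them passed the filter. Their mean was 7.92 in BALB/cByJ, 7.62 in CE/J, 7.51 in NON/LtJ and 7.27 in WSB/EiJ, against 5.74 to 6.86 in the other 23 accumbens arrays and 4.24 to 5.47 in cortex. Lhx8, a transcription factor of basal forebrain cholinergic neurons, was at 9.64, 8.27, 8.75 and 8.46 in these 4 arrays and between 5.05 and 7.96 in the others. Isl1 did not follow the list, at 6.63 to 7.39 in the 4 arrays and 6.76 to 7.66 in the others. Zic2, Zic4, Zic5 and Gbx1 did not pass the filter. The mean of the 9 tested interneuron markers was 8.53 in BALB/cByJ, 8.38 in CE/J, 8.22 in NON/LtJ and 8.32 in WSB/EiJ, against 7.45 to 8.36 (median 7.83) in the other 23. The mean of the 4 tested claustrum and endopiriform markers was 7.11, 7.71, 7.33 and 7.08 in the same order, against 7.35 to 8.53. The part of neighbouring tissue or of these cell types in the Oprl1 values was not tested.

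Within the 23 other accumbens arrays, Oprl1 still tended to be higher where spiny neuron markers were lower. On 1426204_a_at r was -0.46 and rho -0.50 (permutation p 0.027 and 0.018, adjusted p 0.054 and 0.072 over 12 relations). On 1450486_a_at r was -0.53 and rho -0.44 (permutation p 0.010 and 0.038, adjusted p 0.024 and 0.091). Without I/LnJ and NZW/LacJ, r was -0.41 (permutation p 0.064) and -0.28 (permutation p 0.22), so neither relation passed 0.05 and the second rests on those arrays. The first had not passed 0.05 after adjustment even with them. With the septum and basal forebrain mean, r was 0.57 and 0.54 in these arrays, with no p-value given because the list was chosen after seeing values. Relations with this mean are still among the 12 over which p was adjusted. Oprk1 against the same mean gave r of -0.18 and -0.08. With the cortical excitatory mean, r was 0.07 and -0.09 for the Oprl1 probe sets (permutation p 0.73 and 0.69).

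The Oprl1 probe sets ordered the strains alike in accumbens but not in cortex. In accumbens they correlated at r 0.82 (permutation p 1e-05, the smallest the draws can give, adjusted p 1.5e-05) and rho 0.66 (permutation p 0.00027), at r 0.71 without BALB/cByJ and CE/J, and at r 0.53 without the 5 strains. In cortex r was 0.19 and rho 0.15 (permutation p 0.35 and 0.45). Neighbours in the order of 1426204_a_at were closer than the residual SD of 0.32 in all 28 cortex steps and in 25 of 26 accumbens steps, the exception being the step of 0.37 up to NOD/LtJ. For 1450486_a_at the widest steps were 0.35 up to AKR/J in cortex and 0.60 up to BALB/cByJ in accumbens, beside a residual SD of 0.68. As for Oprk1, this describes the order and tests nothing.

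Pnoc, the nociceptin precursor gene, was dim in cortex and, outside BALB/cByJ and CE/J, in accumbens too. Its probe set 1425892_a_at ran from 3.04 in C58/J through a median of 3.44 to 4.21 in 129S1/SvImJ in cortex. In accumbens it was 6.31 in BALB/cByJ, 5.54 in CE/J, 4.38 in NON/LtJ and 3.47 in WSB/EiJ, and between 2.67 and 2.81 in the other 23 arrays. The upper end of that narrow range, 2.81, was again I/LnJ. Between dim values of regions that were, by the values, normalized separately, no order of the regions is read. NON/LtJ and WSB/EiJ were above that range but still dim. These 4 arrays were those low in spiny neuron markers. They were also high in septum and basal forebrain markers, but that list was chosen after its values had been seen, so this is no separate evidence. Their interneuron means lay in the upper part of the range. Their claustrum and endopiriform means, except that of CE/J, lay below those of the other 23 arrays. The part of each in the Pnoc values was not tested.

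**Figure D4:**
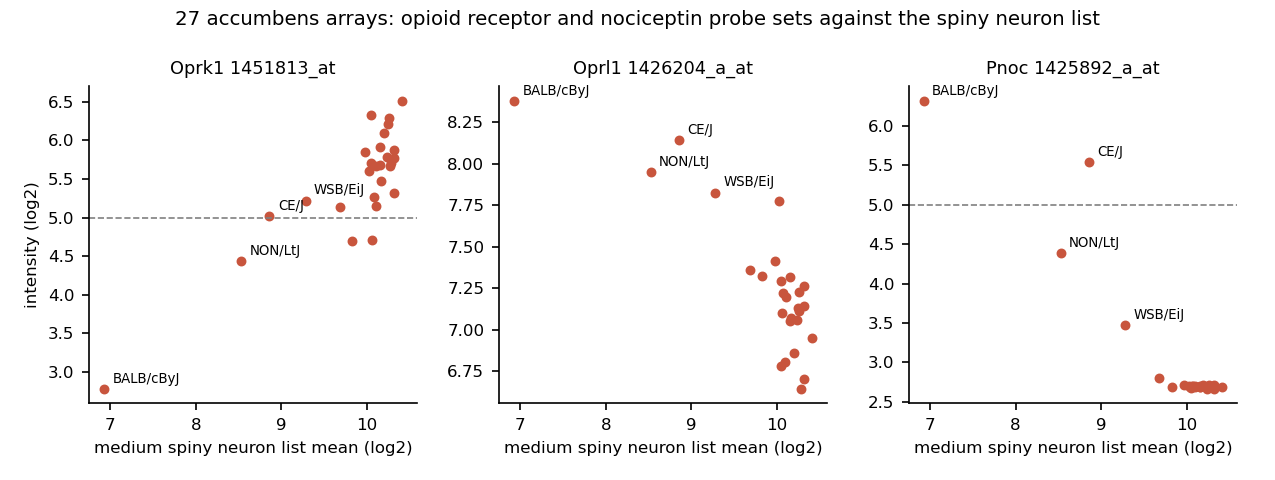
Log2 intensity (vertical axis) of 1 probe set each of Oprk1, Oprl1 and Pnoc on the 27 accumbens arrays against the mean log2 intensity of 10 spiny neuron markers (horizontal axis); each point is 1 array, 4 arrays are named and the dashed line, where within range, is log2 5. The named arrays, with marker means from 6.93 to 9.28, hold the highest Oprl1 and Pnoc values, and BALB/cByJ and NON/LtJ the lowest Oprk1 values.

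Neither tested Oprl1 probe set was called between strains. The test asks for strain differences shared by both regions, and 20.1% of all tested probe sets passed it. By limma's F test the adjusted p was 0.37 for 1426204_a_at and 0.87 for 1450486_a_at, and at an unadjusted p under 0.05 the count was also 0 (unadjusted p 0.22 and 0.85 from the same limma fit). The residual SDs were 0.32 and 0.68, beside a median of 0.21 over all tested probe sets. Without the 5 strains the limma adjusted p of 1426204_a_at was 0.055. For Oprk1 this test could not answer the question, because cortex was dim in every strain and an accumbens strain difference then enters the residual as much as the strain term. Its limma adjusted p, 0.53 and 0.41, therefore says nothing on strain differences in accumbens.

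No relation between a strain's cortex level and its accumbens level was detectable. Over 27 strains r was -0.05 and 0.13 for the Oprk1 probe sets and 0.13 and -0.26 for those of Oprl1, with permutation p of 0.79, 0.50, 0.51 and 0.19 and adjusted p of 0.79, 0.68, 0.68 and 0.68 over these 4 relations. The corresponding rho values were -0.35, 0.04, 0.33 and -0.26 (permutation p 0.075, 0.82, 0.090 and 0.19). Without the 2 strains farthest from the cortex median, r was -0.28, -0.05, 0.39 and -0.22 (permutation p 0.17, 0.79, 0.055 and 0.28). Without the 5 strains 1426204_a_at reached r 0.46 (permutation p 0.031, adjusted p 0.12). For Oprk1 the cortex side of the relation lies in the dim range.

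The genes most like Oprk1 and Oprl1 were found by correlation over the 54 paired arrays after each region's mean was taken off, as a description with no test, on arrays that share their pools and hybridisation. For 1451813_at of Oprk1 they were Kctd8, an auxiliary subunit of GABA-B receptors (r 0.84), Epha7, an ephrin receptor (r 0.84), and Pdyn, the precursor of dynorphin (r 0.83). Without the 5 strains these were 0.55, 0.49 and 0.57. For 1426204_a_at of Oprl1 they were Slc39a6, a zinc transporter (r 0.84), Adgra1, an adhesion G protein-coupled receptor (r 0.82), and Rassf5, a Ras effector (r 0.82), and without the 5 strains 0.65, 0.56 and 0.59. All 6 values were lower without the strains that stood apart. Within single regions r was 0.05 to 0.57 in cortex and 0.86 to 0.92 in accumbens, so the likeness came mostly from accumbens. Kctd8 had a cortex mean of 2.94, and Adgra1 and Rassf5 had accumbens means of 4.34 and 3.15, all dim.

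The precursors of the other opioid peptides were much brighter in accumbens. Of 4 precursor genes, 2 passed the filter and both were higher in accumbens, with a median difference of 3.89 (3.58 with Pdyn at its bound) against 0.13 over all tested probe sets. Of all tested probe sets, 83.3% were called between the regions and 51.8% were called higher in accumbens. Counts of calls in this list and in those below therefore say little by themselves. Penk, the precursor of enkephalins, was at 7.52 ± 1.04 in cortex and 12.58 ± 0.44 in accumbens (SD, n = 27), a 33.2-fold difference (limma adjusted p 3.6e-20). Its MA/MyJ cortex array, the highest in cortex, was at 12.60, within the accumbens range of 10.85 to 13.05. Pdyn, whose products act on the kappa receptor, was at 4.38 ± 0.20 in cortex and 7.11 ± 0.78 in accumbens (SD, n = 27), at least 4.32-fold higher. It exceeded log2 5 on 0 cortex and 26 accumbens arrays, so like Oprk1 it passed the filter only through accumbens and had to differ. Like Oprk1, Pdyn was lowest in the accumbens of BALB/cByJ, at 4.34, and next to lowest in NON/LtJ, at 5.70. This order was not particular to them. Penk had the same lowest accumbens arrays, at 10.85 and 11.76, as had the spiny neuron mean, at 6.93 and 8.53. Pomc and Pnoc did not pass the filter.

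Genes that process and degrade the peptides showed smaller differences. Of 5 tested processing genes, 4 were lower in accumbens, 0 higher and 1, Pcsk1n, passed neither way (median -0.24, or -0.20 with Pam at its bound). Over all 16056 tested probe sets, 5060 were called lower in accumbens and 8320 higher. Ctsl, a lysosomal protease that also cuts prohormones, differed by -0.97, Scg5, the chaperone of a prohormone convertase, by -0.24, and Cpe, which trims basic residues, by -0.20. Pam, which amidates peptides, had an accumbens mean of 4.42 and was at least 1.09-fold lower there. Pcsk1 did not pass the filter and Pcsk2 was not analysed here. Of the peptide-degrading enzymes, 2 of 5 were tested and both were higher in accumbens. Mme, or neprilysin, which cleaves enkephalins, was at least 2.31-fold higher. In cortex it exceeded log2 5 only on the MA/MyJ array, so it too had to differ to be tested. Npepps, a puromycin-sensitive aminopeptidase, differed by only 0.09 (limma adjusted p 0.034). That call was lost in 7 of 27 fits that left out 1 strain, without the 5 strains (0.08, limma adjusted p 0.10) and with quantile normalization (0.015, limma adjusted p 0.74), and with arrays centred the sign turned to -0.04.

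Downstream of the receptors the genes did not move one way. Calls in either direction were common, at 83.3% of all tested probe sets. Among 5 inhibitory G protein alpha subunits, 2 were higher in accumbens (Gnai2 by 0.51, Gnai1 by 0.28), 2 were lower (Gnaz with -0.56, Gnao1 with -0.25) and Gnai3 passed neither way (median -0.01). Of 7 tested effectors, 1 was higher, 5 were lower and 1 passed neither way (median -0.68 with Adcy8, dim in accumbens, at its bound, and -1.24 as measured). Adcy5, the main striatal adenylyl cyclase, was 10.8-fold higher in accumbens (limma adjusted p 3.6e-20). Adcy1, a calcium-stimulated cyclase, was 9.33-fold lower, and the channel subunits Kcnj3 and Kcnj9 of the inward rectifiers that G proteins open were lower too: Kcnj3 9.02-fold, and Kcnj9 with 7.02 in accumbens against 9.02 in cortex (limma adjusted p 8.4e-23 for Adcy1, 9.7e-23 for Kcnj3 and 1.6e-18 for Kcnj9). Kcnj5 and Kcnj6 did not pass the filter.

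Of 10 tested receptor kinases, arrestins and RGS proteins, 4 were higher, 4 were lower and 2 passed neither way (median 0.01). Rgs9, a striatal regulator that speeds the shut-off of G proteins, was at least 26.2-fold higher in accumbens and exceeded log2 5 on 1 cortex array, so it had to differ to be tested. Rgs20 differed by 1.12, Grk3, a receptor kinase, by -1.42, and Rgs4 by -1.07. Of 4 tested receptor partners and opioid-named genes, 3 were lower: Gprin1 with -1.25, Opcml with -1.13 and Wls with -0.99. Ogfr, the opioid growth factor receptor gene, which is unrelated to the receptors above, was higher by 0.20 and was not called after centring or quantile normalization. Of related peptide receptors, 3 somatostatin receptor genes were tested and all were lower in accumbens: Sstr3 at least 2.29-fold, Sstr2 at least 2.64-fold and Sstr4 2.97-fold (median difference -1.89, or -1.40 with Sstr2 and Sstr3 at their bounds). Beside the counts in these lists, 83.3% of all tested probe sets were called in either direction. Sstr2 exceeded log2 5 on 1 accumbens array and Sstr3 on 0, so both passed the filter through cortex and had to differ. Of the 38 pathway genes tested, 6, or 15.8%, passed the strain test (Scg5, Pam, Kcnj9, Grk5, Rgs17 and Opcml), beside 20.1% of all tested probe sets.

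**Figure D5:**
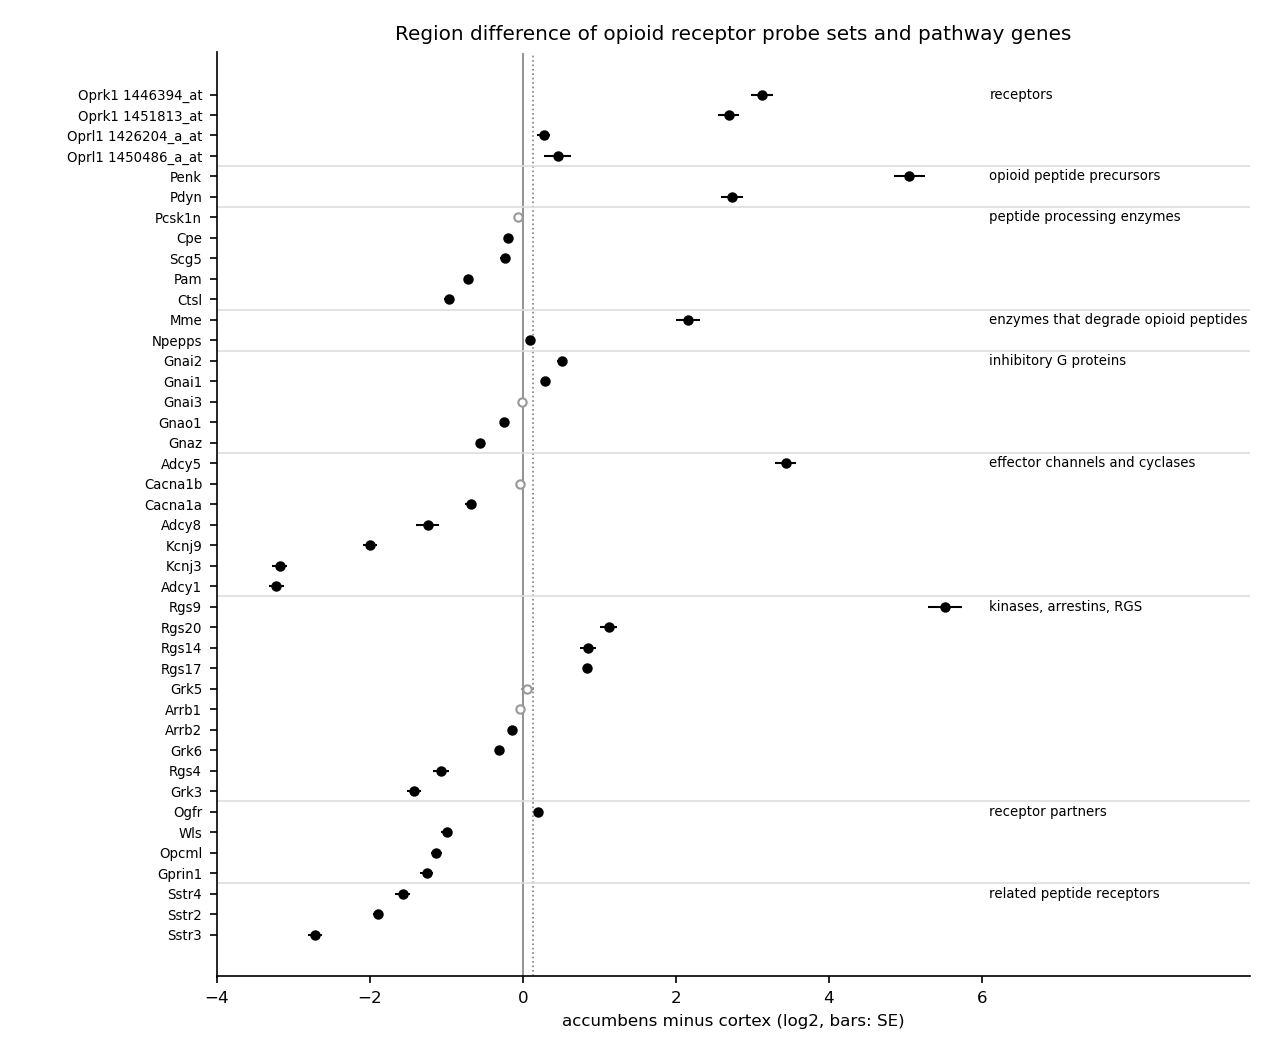
Accumbens minus cortex difference in log2 units (horizontal axis, points with SE bars, n = 27 strains) for the 4 tested receptor probe sets and for the tested genes of 8 pathway lists; filled points passed an adjusted p of 0.05, open points did not, the solid line is 0 and the dotted line the median of 0.13 over all tested probe sets. Points are differences as measured, also where a region mean is below log2 5 and the text gives a bound (Oprk1, Pdyn, Pam, Mme, Adcy8, Rgs9, Sstr2, Sstr3 and 1450486_a_at); 1426204_a_at of Oprl1 lies at 0.27.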

How the data were processed

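The values were the probe set intensities deposited by the authors, on a linear scale, from 56 arrays of RNA pooled per strain and region. Per the submitters' processing notes they were made with GCRMA, a method that removes background by probe sequence, equalises the distributions of arrays and combines the probes of a set. The version of GCRMA and the genome build are not given in the sources used here. The log2 value at rank 100 from the top ran from 12.29 to 12.41 in cortex and from 12.45 to 12.56 in accumbens, without overlap. At rank 10 from the bottom it ran from 0.98 to 1.01 in cortex and from 1.12 to 1.15 in accumbens, also without overlap. At rank 1000 from the top the ranges overlapped, at 10.11 to 10.18 in cortex and 10.17 to 10.26 in accumbens, as did the array medians. That the regions were normalized separately is inferred from the ranks without overlap and was not tested. Values were turned to log2 with no pseudocount; 64 control probe sets were left out, and of the other 44951, 34880 had 1 gene symbol in the platform's annotation, 923 had several and 9148 had none. Of the symbols, 34690 were looked up by gene identifier in a RefSeq table and 0 changed. No sequence or coordinate was used.

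Probe sets above log2 5 on at least 13 of 54 paired arrays (16056) were fitted with limma 3.58.1 in R 4.3.3 (lmFit, eBayes), with region and strain as terms, Benjamini-Hochberg adjustment and a threshold of 0.05. Region was tested by its moderated coefficient and strain by a moderated F test. Strain was the block because both regions came from the same brains; for 21 of 27 cortex arrays the accumbens array closest in deviation from the region mean was that of the same strain (same-strain correlation lowest 0.13, median 0.43). Where 1 region's mean was below log2 5, the fold was computed from log2 5 and is a lower bound. List genes were represented by their brightest tested probe set, which other probe sets of the gene can contradict.

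Correlations used permutation tests, two-sided, of 100000 draws in Python 3.11.15 (scipy 1.17.1, numpy 2.4.6, pandas 2.3.3; figures by matplotlib 3.10.9). The named genes were all probe sets of the 5 genes, up to 4 genes of each pathway list by size of the region difference among those called, the 3 most correlated genes per receptor, and the extreme strains. The genes and lists were chosen with earlier results of these data known, and the septum and basal forebrain list, like the setting apart of 4 accumbens arrays in the marker relations, was chosen after seeing the values. The limma fits and the permutation test of correlation were tested on simulated data with known answers. The number of arrays limits the precision. Alternatives were other filters, quantile normalization, centring, other probe set choices, trend and robust variance, leaving out strains, a threshold of 0.01 and no replicate block.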

Additional observations from a re-analysis of the deposited data

How the results depend on the processing

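With 27 strains left out in turn, 4 receptor probe sets remained called between the regions each time (range 4 to 4) and 0 between strains (range 0 to 0), where Oprk1, dim in cortex, could hardly be called. Both Oprk1 probe sets passed the filter, set once on all 54 paired arrays, through accumbens alone, so their region calls had to hold. Across these fits the region differences ranged from 3.08 to 3.21 for 1446394_at and from 2.65 to 2.80 for 1451813_at of Oprk1, and from 0.22 (without CE/J) to 0.30 for 1426204_a_at and from 0.37 (without BALB/cByJ) to 0.53 (without AKR/J) for 1450486_a_at of Oprl1. The number called was 10 with no filter, 1 with a filter at log2 7 (which left 1 of them tested), 2 with quantile normalization, 2 with arrays centred and 2 with the brightest probe set per gene (which left 2 tested). The 10 include dim probe sets. With no filter, 76.8% of the 26153 probe sets below log2 5 on all 56 arrays were called too. The 10 are therefore not read as more receptor differences. Neither Oprl1 difference was past the threshold with quantile normalization (0.16, adjusted p 0.081, and 0.32, adjusted p 0.092) or centring (0.14, adjusted p 0.11, and 0.32, adjusted p 0.087), and 1450486_a_at also missed it without the 5 strains (0.16, adjusted p 0.32) and at a threshold of 0.01 (0.45, adjusted p 0.019), all by limma. With region means raised to log2 5, the Oprk1 differences were 0.50 and 0.48 by construction. The correlation of the regions changed sign for 1451813_at without the 2 strains farthest in cortex (0.13 to -0.054) and for 1446394_at with quantile normalization (-0.050 to 0.021), neither past the threshold. Without the replicate block the pairing was ignored and all 4 calls held, with limma adjusted p of 0.0052 and 0.0094 for Oprl1. For all tested probe sets, 8320 were higher in accumbens and 5060 lower, against 6839 and 6335 with quantile normalization, 6659 and 6521 with centring, 17003 and 18679 with no filter, and 4293 and 2761 with a filter at log2 7; strain calls were 3225, against 1634 with that filter. Of 2285 settings over the 64 named list genes, 2269 kept direction and call, 15 lost the call and 1 turned sign, Npepps, at -0.037 with centring. The cause of these changes was not tested.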

Other observations

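The other marker lists are given as counts over tested genes with the median region difference as measured (accumbens minus cortex, log2). These medians are not bounded at log2 5, and several list genes had 1 region's mean below it. Of all tested probe sets, 83.3% were called between the regions and 51.8% were called higher in accumbens, so a call is common here. All 6 oligodendrocyte genes were higher in accumbens (median 1.40), as were 5 of 6 striosome genes (median 2.33), with Kremen1 lower. Of 4 claustrum and endopiriform genes, 3 were higher and Nr4a2 was lower (median 1.25). Among 9 interneuron genes, 5 were higher and 4 lower (median 0.67). Gad2 and Slc32a1, which spiny neurons also express, were among the higher ones, and Vip and Pvalb among the lower ones. Of 5 astrocyte genes, 2 were higher and 2 lower (median -0.07), with Gja1 no longer called after centring, and of 5 microglial genes 3 were higher (median 0.45). All 3 endothelial genes were lower (median -0.48), with Flt1 not called without the 5 strains or without the replicate block. Both tested choroid plexus genes, Ttr and Clic6, were higher in accumbens (median 3.01). Their cortex means were 3.59 and 2.33, and against log2 5 the folds were at least 1.00 and 3.85. The spiny neuron and cortical excitatory medians were 4.69 and -5.52, and in the latter list Tle4 alone was higher in accumbens. The genes of that list that were lower there had accumbens means below log2 5. Of the septum and basal forebrain genes, Lhx8 and Isl1 were higher, Trpc4 was lower and Zic1 was not called (median 2.00). Lhx8 and Isl1 had cortex means of 3.07 and 2.10 and passed the filter mainly through accumbens, so they had to differ. Trpc4 had an accumbens mean of 4.06.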
